A study of Mus musculus with 16 samples.

Results

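The PAF1 elongation complex was examined through the 5 genes of its subunits, Paf1, Ctr9, Leo1, Rtf1 and Cdc73, which are 5 of the 21887 protein-coding genes that RefSeq annotates on GRCm38 (mm10). The genes were taken by name, and each was taken as its annotated span with 5 kb on either side. Chromatin immunoprecipitation and sequencing had been done on mouse neural stem cells (NSCs) that were derived from the telencephalic cortex at E14.5 and grown as neurospheres, then plated on Matrigel and fixed. Wild-type and SETD5+/- cells, the latter heterozygous at Setd5 and written Setd5+/- here, were each profiled for H3K4me1, H3K4me3, H3K27ac, H3K27me3, H3K36me2 and H3K36me3. A V5 antibody was used on wild-type cells labelled S5V5, whose signal is called SETD5-V5. The labels do not say how the tag was introduced, how the Setd5 allele was made, or how many embryos gave the cells, and no V5 library of untagged cells was analysed here. Enriched regions, called islands, were analysed for 13 of the 16 samples, and the 3 inputs are not analysed here. Each group had 1 library and no replicate. Differences between genotypes are therefore values of 2 libraries, with no p-value, and their intervals cover counting error at most. A call below is a fixed size of difference, set beside the share of all genes past the same size. Under most alternative settings that share was not computed.

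The PAF1 complex travels with RNA polymerase II through transcribed genes. It takes part in release from promoter-proximal pausing and in elongation, and it is needed for the ubiquitination of histone H2B that accompanies transcription. PAF1 and CTR9 form the core to which the other subunits attach, LEO1 binds next to PAF1, and CDC73, also called parafibromin, is a tumour suppressor subunit that contacts the polymerase. RTF1 carries the domain that stimulates H2B ubiquitination and is less firmly bound in mammals. Among the marks measured, H3K4me3 lies at active starts, H3K27ac at active starts and enhancers, H3K4me1 at enhancers and beside starts, and H3K27me3 over Polycomb-silenced genes. H3K36me3 lies over transcribed gene bodies, and H3K36me2 covers broader gene and intergenic domains. SETD5 has a SET domain, the fold of lysine methyltransferases, and the study asks about its relation to H3K36 methylation.

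The members differ in size and in their neighbours. Paf1 (gene ID 54624) spans 6.39 kb on the forward strand of chromosome 7 (28392996 to 28399383). Ctr9 (22083) spans 27.4 kb of the same chromosome (111028951 to 111056377). Leo1 (235497) spans 25.4 kb on the forward strand of chromosome 9 (75441015 to 75466432), with its start in the promoter table at 75441524. Rtf1 (76246) spans 60.3 kb on the forward strand of chromosome 2 (119675068 to 119735407), and Cdc73 (214498) spans 99.6 kb on the reverse strand of chromosome 1 (143603276 to 143702893). Paf1 is packed between Med29, a Mediator subunit gene read in the opposite direction from 305 bp away, and Samd4b, which ends 138 bp beyond the end of Paf1. Cdc73 holds B3galt2, a galactosyltransferase gene, in full on its opposite strand. Leo1 is followed by Gm7972 after 2140 bp, and no other protein-coding gene lies within 5 kb of Ctr9 or Rtf1.

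The 250 bases before the start are shown for the 3 members whose starts lay at the edge of their annotated span, because H3K4me3 marked all of these starts while H3K27ac marked only those of Rtf1 and Cdc73. The sequences are from RefSeq, GRCm38.p6, written 5′ to 3′ on the strand of the gene, and matches for 4 of the 5 members were found in the promoter table. Capitals mark CCAAT (or ATTGG on the other strand), the box bound by NF-Y, and GGGCGG (or CCGCCC), the GC box bound by SP factors. Paf1 is at chr7:28392746-28392995, Rtf1 at chr2:119674818-119675067 and Cdc73 at chr1:143702894-143703143.
Paf1: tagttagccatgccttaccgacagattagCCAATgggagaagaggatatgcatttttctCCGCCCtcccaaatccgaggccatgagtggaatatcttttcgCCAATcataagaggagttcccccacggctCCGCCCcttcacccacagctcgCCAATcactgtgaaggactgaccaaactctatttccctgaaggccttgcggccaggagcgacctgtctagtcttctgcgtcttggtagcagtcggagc
Rtf1: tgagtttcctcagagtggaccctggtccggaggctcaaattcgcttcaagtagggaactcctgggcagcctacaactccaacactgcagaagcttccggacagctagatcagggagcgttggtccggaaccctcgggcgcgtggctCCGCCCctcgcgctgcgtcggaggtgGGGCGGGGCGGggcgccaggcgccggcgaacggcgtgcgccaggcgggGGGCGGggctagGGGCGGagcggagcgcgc
Cdc73: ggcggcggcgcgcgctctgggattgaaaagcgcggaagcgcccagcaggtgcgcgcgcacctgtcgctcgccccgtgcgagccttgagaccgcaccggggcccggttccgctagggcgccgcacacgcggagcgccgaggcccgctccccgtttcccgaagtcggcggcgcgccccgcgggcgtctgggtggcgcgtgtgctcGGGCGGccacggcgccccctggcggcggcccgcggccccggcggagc

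CCAAT occurred 3 times in the Paf1 window, with first bases 221, 149 and 98 bases before the start, and in none of the windows of Leo1, Rtf1 and Cdc73. GGGCGG occurred in all 4 windows, with 2 copies in Paf1, 2 in Leo1, 5 in Rtf1 and 1 in Cdc73, and the Rtf1 copies at 78 and 73 bases before the start overlap by 1 base. TATAAA, the TATA box, was in none of the 4. On both strands of all 32851 promoter windows of this length, CCAAT was present in 33.8%, GGGCGG in 32.7% and TATAAA in 12.4%. GC content was 53.6% in Paf1, 60.0% in Leo1, 70.4% in Rtf1 and 80.4% in Cdc73, beside a median of 52.4% over all windows. The number of CpG dinucleotides followed the same order, with 11, 21, 28 and 47, beside a median of 6. The motifs were chosen after the sequences had been seen, and a match is a description of letters and not a measured site.

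Reads inside islands ranged from 1019278 (Setd5+/- H3K27ac) to 5093126 (Setd5+/- H3K4me3) per library. In Setd5+/- relative to wild type they stood at 1.09 times for H3K4me3, 0.893 for H3K27ac, 0.558 for H3K4me1, 1.44 for H3K36me3, 2.25 for H3K36me2 and 0.608 for H3K27me3. Chromosome 1, which holds Cdc73, stood apart: its share of island reads was higher in Setd5+/- for all 6 marks, from 7.59% to 14.8% for H3K36me3 and from 10.0% to 54.6% for H3K36me2. Chromosomes 4, 15, X and Y were set aside with it, a choice made with earlier results known, in a scaling to the 16 remaining autosomes. Of 10 markers of neural stem cells and radial glia, 9 had H3K4me3 and 9 had H3K27ac at a start in each genotype. In wild type Pax6 was the one without H3K27ac. H3K27ac was at the start of 1 of 6 neuronal markers in each genotype (Map2 in wild type). It was at none of 4 oligodendrocyte, 5 microglia and blood, or 5 endothelium and mesenchyme markers. H3K4me3 separated the lists less, and its counts were equal in each genotype. It was at 4 neuronal, 1 oligodendrocyte, 1 microglia and blood, and 2 endothelium and mesenchyme markers. The genotype labels could not be checked here, since islands report neither transcript nor allele.

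**Figure D1:**
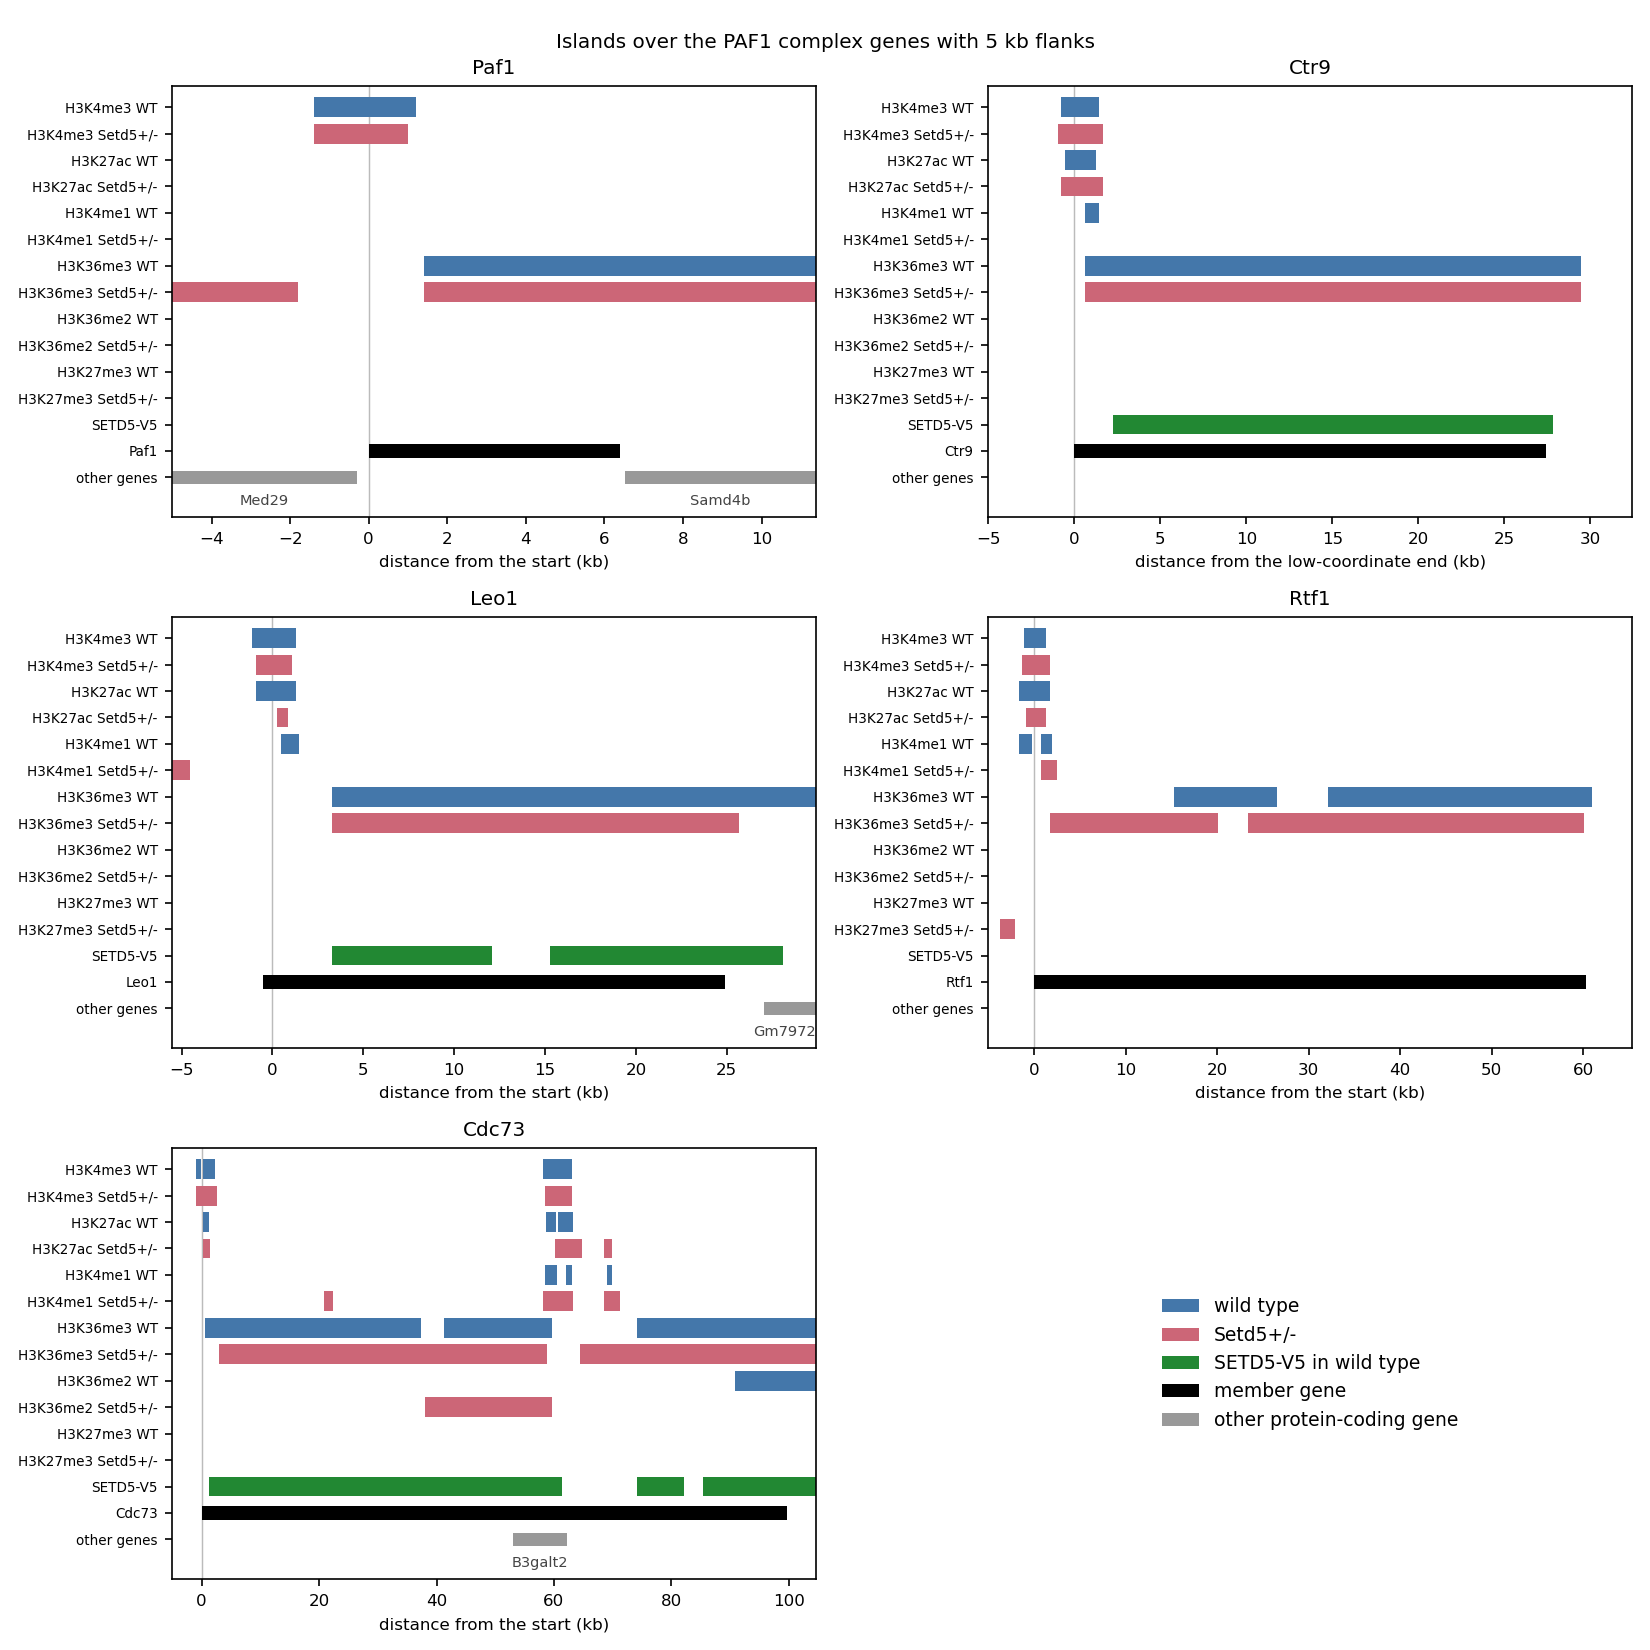
Islands along each member with 5 kb flanks, 1 row per library, with distance in kb from the start in the direction of transcription (for Ctr9, from the low-coordinate end). Black bars are the members and grey bars other protein-coding genes. H3K4me3 sits at the starts, H3K36me3 over the bodies, and SETD5-V5 over Ctr9, Leo1 and Cdc73 but not over Paf1 or Rtf1.

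In all, 62 islands of the 13 lists touched the members or their flanks, and the maps of islands along each gene show their order. All 5 members carried H3K4me3 within 1 kb of the start in both genotypes, as did 57.9% of all genes, and none carried it in 1 genotype only (2.28% of genes in wild type only, 0.717% in Setd5+/- only). Paf1 had an island of 426 reads over 2.6 kb in wild type and 400 reads over 2.4 kb in Setd5+/- cells. This island also covered the start of Med29, so the signals of both starts cannot be told apart. Ctr9, for which either end counted as a start, had H3K4me3 at its low-coordinate end, with 452 reads over 2.2 kb in wild type and 517 over 2.6 kb in Setd5+/- cells. Leo1 had 339 and 324 reads over 2.4 and 2.0 kb, and Rtf1 had 379 and 411 reads over 2.4 and 3.0 kb. The reads of each of these 4 starts thus lay close together in both genotypes.

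Cdc73 had its start flanked rather than covered in wild type. An island of 358 reads began 0.293 kb after the start and another of 96 reads lay before it, ending at −0.108 kb, whereas a single Setd5+/- island of 633 reads ran over both places and the gap. A further H3K4me3 island lay 58 to 63 kb into Cdc73 at the start of B3galt2, with 653 reads in wild type and 693 in Setd5+/- cells. Scaled to the island reads of each library and summed over the gene with its flanks, the log2 ratio of Setd5+/- to wild type for H3K4me3 was −0.22 for Paf1 (95% interval −0.42 to −0.02), 0.06 for Ctr9 (−0.12 to 0.25), −0.19 for Leo1 (−0.42 to 0.03) and −0.01 for Rtf1 (−0.22 to 0.19). For Cdc73 it was 0.13 (0.02 to 0.25). The median was −0.01 over the members and −0.05 over all genes of at least 5 kb with reads in both genotypes. The Cdc73 ratio lay below the chromosome 1 median of 0.46 and below its lower quartile of 0.33. It pools the start of Cdc73 with that of B3galt2, whose island held 653 of the 1107 wild-type and 693 of the 1326 Setd5+/- reads. A ratio for the Cdc73 start alone was not computed.

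H3K27ac separated the members. Paf1 had none within 5 kb in either genotype, although its start had H3K4me3. The other 4 had H3K27ac within 1 kb of the start in both genotypes, as did 31.8% of all genes, and no member had it in 1 genotype only (6.16% of genes in wild type only, 4.10% in Setd5+/- only). Ctr9 had 53 reads in wild type and 59 in Setd5+/- cells. Leo1 had 63 reads over 2.2 kb in wild type and 26 over 0.6 kb in Setd5+/- cells, and the latter island began 0.277 kb after the start. Rtf1 had 89 reads over 3.4 kb in wild type and 37 over 2.2 kb in Setd5+/- cells. Island reads were thus higher in wild type at both Leo1 and Rtf1, while Ctr9 had nearly equal reads.

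On that scale, H3K27ac island reads were lower in Setd5+/- cells by a log2 ratio of −1.11 at Leo1 (−1.83 to −0.43) and −1.10 at Rtf1 (−1.70 to −0.54). The ratio was 0.32 at Ctr9 (−0.24 to 0.88), an interval that spans 0. Of the 4 members with reads in both genotypes, 2 were lower by 1.5 fold or more and 0 were higher, where 23.9% and 15.7% of all 7877 such genes were. The median over those genes was −0.15, with quartiles at −0.56 and 0.31. Scaled to the 16 remaining autosomes, the ratios were −0.94 at Leo1 and −0.93 at Rtf1. The Setd5+/- island at Leo1 was narrower but denser, with 43.3 reads per kb over 0.6 kb beside 28.6 over 2.2 kb in wild type. Reads outside islands were not counted, and the part of island width in the Leo1 ratio was not tested. The Setd5+/- island at Rtf1 was among the sparsest of its list, with 16.8 reads per kb. It was lost when the lowest 25% of islands by reads per kb were left out. H3K4me3 of the same genes had log2 ratios of −0.19 and −0.01, closer to 0 than those of H3K27ac.

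Cdc73 had H3K27ac of 42 reads at its own start in wild type and 45 in Setd5+/- cells. Most of its H3K27ac lay at B3galt2 instead, with 128 and 33 reads in 2 wild-type islands and 118 reads in 1 Setd5+/- island. An island of 29 reads, 68.5 to 69.9 kb into the gene, was listed in Setd5+/- cells. The log2 ratio over the whole region was 0.08 (−0.21 to 0.37), against a chromosome 1 median of 0.77.

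H3K4me1 was sparse. Paf1 had none in either genotype. Ctr9 had 1 island of 27 reads beside the start in wild type and none in Setd5+/- cells. It was the 1 member marked in wild type only, a state shared by 22.1% of genes, and 0 members were marked in Setd5+/- only, beside 2.91% of genes. Leo1 had 29 reads 0.477 to 1.48 kb after the start in wild type, and in Setd5+/- cells an island of 32 reads at −6.32 to −4.52 kb. Rtf1 had 48 reads before and 34 after the start in wild type and 35 after it in Setd5+/- cells, so the upstream side was listed in wild type alone. In Cdc73, H3K4me1 lay mostly at B3galt2, with 54 and 30 reads in 2 wild-type islands and 90 reads in 1 Setd5+/- island. Another place, about 69 kb from the Cdc73 start, had 27 and 45 reads, and a Setd5+/- island of 25 reads lay 20.9 kb in. Cdc73 was the 1 member of 3 with reads in both genotypes that was higher by 1.5 fold. Of the 6634 genes of at least 5 kb with reads in both, 21.9% were. The log2 ratio of Cdc73 was 1.37 (1.01 to 1.73). The chromosome 1 median was 1.02. All 3 Setd5+/- islands of Cdc73 were sparse, with 16.1 to 17.9 reads per kb. They were lost when the lowest 25% of islands were left out, which left H3K4me1 on Cdc73 in wild type only, over 3.81% of the span.

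No H3K27me3 island lay over any of the 5 spans in either genotype. In Setd5+/- cells 1 island of 1.6 kb and 37 reads lay upstream of Rtf1, at −3.67 to −2.07 kb from the start. Rtf1 was thus the 1 member marked within 5 kb in Setd5+/- only, as were 3.70% of genes, and 0 members were marked in wild type only, as were 6.08%.

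**Figure D2:**
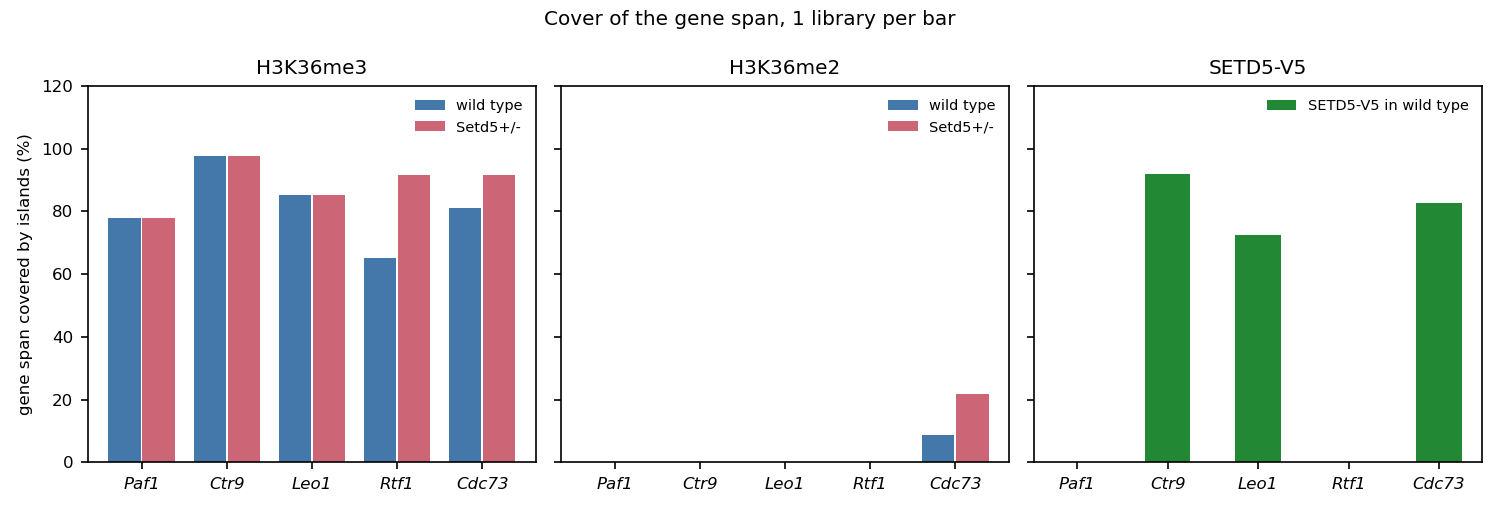
Percent of each member's span covered by islands of H3K36me3, H3K36me2 and SETD5-V5, with 1 bar per library and no replicate. H3K36me3 covers from 65.3% to 97.6% of the spans, with a difference between genotypes at Rtf1 and Cdc73, H3K36me2 is on Cdc73 alone, and SETD5-V5 is on Ctr9, Leo1 and Cdc73.

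H3K36me3 covered most of all 5 genes in both genotypes. All 5 had it over at least 25% of the span in both, where 32.0% of the 16853 genes of at least 5 kb did. The span covered in wild type and Setd5+/- cells was 78.0% and 78.0% in Paf1, 97.6% and 97.6% in Ctr9, 85.1% and 85.1% in Leo1, 65.3% and 91.5% in Rtf1, and 81.0% and 91.5% in Cdc73. The median over members was 81.0% in the wild-type library and 91.5% in the Setd5+/- library, while the median difference was 0. Cover was higher by 10 percentage points or more in 2 members, Rtf1 and Cdc73, where 11.8% of genes were. It was lower by as much in 0, where 12.0% of genes were. These shares are over all genes of at least 5 kb, whose median cover was 0 in both genotypes. Among the 5939 with wild-type H3K36me3 over at least 25% of the span, the median difference was −2.69 points, with quartiles at −13.6 and 5.06. Which members passed 10 points depended on the region. With the 5 kb flanks included the differences were 19.6 points in Paf1, −11.9 in Leo1, 21.6 in Rtf1 and 9.49 in Cdc73, so that Paf1 and Rtf1 were higher, Leo1 was lower, and Cdc73 no longer passed.

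In Paf1, Ctr9 and Leo1 the island edges inside the gene were the same in both genotypes, at the resolution of the 800 bp windows. The Ctr9 island ran from 0.65 to 29.4 kb in both, with 403 reads in wild type and 581 in Setd5+/- cells, or 14.0 and 20.2 reads per kb. Over the whole lists the median density was also higher in Setd5+/- cells, at 16.2 reads per kb beside 11.8. In Leo1 the islands began 3.28 kb after the start in both. The wild-type one, of 378 reads, went on to 32.9 kb, into Gm7972, while the Setd5+/- one, of 421 reads, ended at 25.7 kb. In Paf1 both began 1.4 kb after the start and ran out of the gene over Samd4b, to 44.6 kb with 464 reads in wild type and to 31.0 kb with 527 reads in Setd5+/- cells. Most of the length of these islands lay outside Paf1, and where their reads lay within them is not given by the lists. A Setd5+/- island of 97 reads over 5.6 kb lay within Med29, on the other side of the Paf1 start.

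Rtf1, the subunit that stimulates H2B ubiquitination, had a difference of 26.2 points, the largest of the members over the gene span with all islands. In wild type H3K36me3 began 15.3 kb into the gene, with an island of 98 reads up to 26.5 kb and another of 334 reads from 32.1 to 60.9 kb. In Setd5+/- cells an island of 233 reads ran from 1.73 to 20.1 kb and one of 568 reads from 23.3 to 60.1 kb. In 4 equal stretches of the gene from start to end, wild-type cover was 0%, 74.2%, 87.0% and 100%, and Setd5+/- cover was 88.5%, 78.8%, 100% and 98.6%. The difference thus lay mainly in the first of these stretches. In total 19.2 kb was listed in Setd5+/- cells only, 3.41 kb in wild type only and 36 kb in both.

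The added Rtf1 cover rested on weak islands. The 233-read island had 12.7 reads per kb, a density below which 4.55% of the islands of its list lay, and the wild-type island of 98 reads had 8.75, with 2.19% below it. When the sparsest Setd5+/- islands were left out until both lists covered equal length, the first was lost and the difference turned to −4.32 points. With the lowest 25% of both lists left out it was 14.2 points. Under both of these settings the difference of Cdc73 was larger than that of Rtf1. Among the 5939 genes with wild-type H3K36me3 over at least 25% of the span, 94.7% had a smaller difference than Rtf1, and on the autosomes other than 1, 4 and 15 cover was higher by 10 points or more in 9.81% of genes. The depth of these libraries outside islands is unknown, so the wild-type level over the first stretch of Rtf1 cannot be given.

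Cdc73 had H3K36me3 from close behind its start to beyond its end, broken around B3galt2. In wild type 3 islands lay at 0.493 to 37.3 kb (514 reads), 41.3 to 59.7 kb (186 reads) and 74.1 to 107 kb (355 reads). In Setd5+/- cells 2 islands lay at 2.89 to 58.9 kb (1228 reads) and 64.5 to 106 kb (774 reads). The gap at B3galt2, whose start is 62.2 kb from that of Cdc73, was present in both genotypes and narrower in Setd5+/- cells. In the same 4 stretches wild-type cover was 98.0%, 83.9%, 42.2% and 100%, and Setd5+/- cover was 88.4%, 100%, 77.5% and 100%. The difference was 10.4 points over the span, 9.49 with flanks, 28.9 with the lowest 25% of islands left out, and again 10.4 at equal covered length. It stood beside higher cover of many genes of the same chromosome. On chromosome 1 cover was higher by 10 points or more in 30.9% of genes, the median difference among its 385 genes with wild-type H3K36me3 was 7.16 points, and 57.4% of those had a smaller difference than Cdc73. The part of the chromosome-wide difference in the Cdc73 value was not tested.

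**Figure D3:**
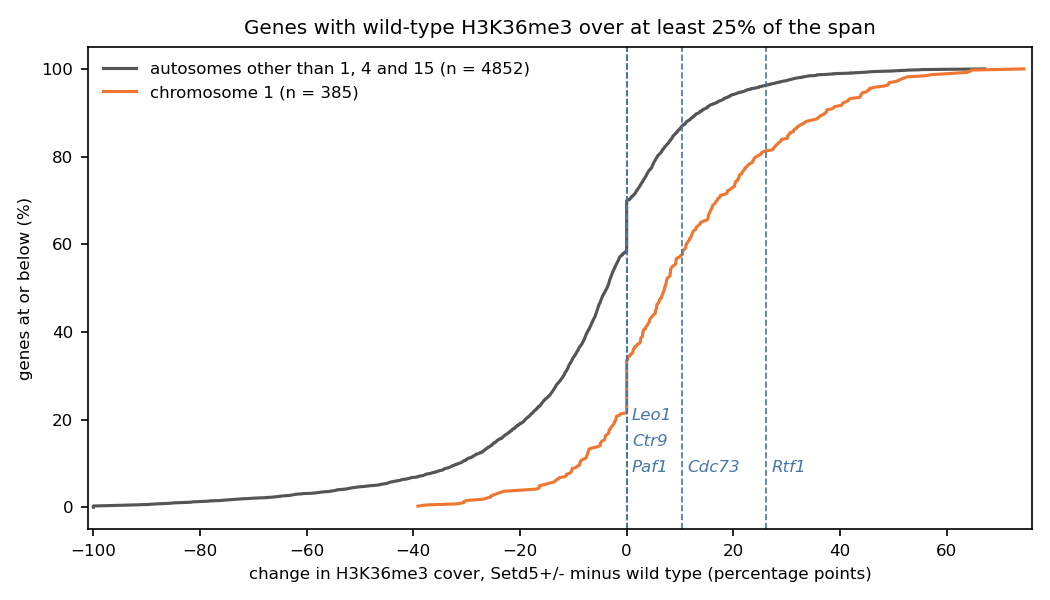
Cumulative share of genes (y axis, %) by the difference in H3K36me3 cover, Setd5+/- minus wild type (x axis, percentage points), for genes with wild-type H3K36me3 over at least 25% of the span. Dashed lines mark the members: Paf1, Ctr9 and Leo1 at 0, Cdc73 at 10.4 close to the middle of the chromosome 1 curve, and Rtf1 at 26.2 near the top of the curve of the other autosomes.

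Read counts gave a less even picture than cover. Over the gene with its flanks, with the reads of an island shared out by length, H3K36me3 counts in wild type and Setd5+/- cells were 107 and 233 in Paf1, 403 and 581 in Ctr9, 340 and 421 in Leo1, 432 and 801 in Rtf1, and 1030 and 1975 in Cdc73. All 5 counts were higher in the Setd5+/- library, whose island reads were 1.44 times those of wild type. The intervals below treat shared-out reads as observed counts. For Paf1 the 107 wild-type reads are a length share of 1 island of 464 reads, so its interval does not measure the counting error of that region. Relative to island reads the log2 ratio was 0.59 for Paf1 (0.26 to 0.94), 0.00 for Ctr9 (−0.19 to 0.19), −0.22 for Leo1 (−0.43 to −0.01), 0.36 for Rtf1 (0.19 to 0.53) and 0.41 for Cdc73 (0.30 to 0.52). The median was 0.36 over the members, 0.18 without Cdc73, and −0.10 over the 7491 genes with reads in both genotypes. A ratio of 1.5 fold or more was reached upwards by 1 member, Paf1, where 12.0% of those genes did, and downwards by 0, where 12.9% did.

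The Paf1 value depended on its neighbours. It was 0.20 over the span alone, and −0.10 when each touching island was counted whole. For Leo1 the ratio was 0.03 over the span alone. For Rtf1 it was −0.07 at equal covered length. The Cdc73 ratio lay below the chromosome 1 medians of 0.59 over all genes and 0.52 over genes with wild-type H3K36me3. Its ratio was thus above that of the middle gene of all chromosomes and below that of the middle gene of its own.

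**Figure D4:**
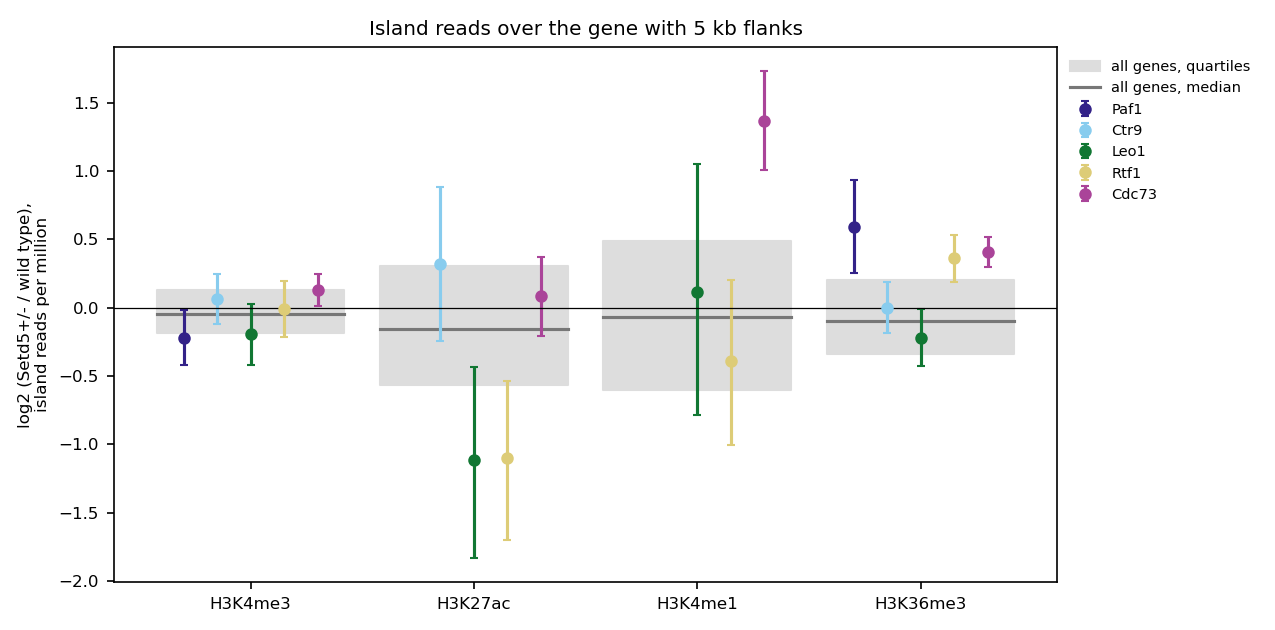
Log2 ratio of reads, Setd5+/- over wild type (y axis), by mark, for each member with reads in both genotypes. Reads are relative to the island reads of each library, and the 95% intervals treat reads shared out by length as counts. Grey bands are the quartiles and grey lines the medians of all genes of at least 5 kb. H3K27ac of Leo1 and Rtf1 lies near −1.1, and H3K4me1 of Cdc73 at 1.37.

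H3K36me2 was listed on Cdc73 and on none of the other 4 members. It covered 8.76% of Cdc73 in wild type and 21.7% in Setd5+/- cells, at different places. The wild-type island of 220 reads lay at the 3′ end, 90.9 to 106 kb from the start, and the Setd5+/- island of 404 reads lay in the middle, at 38.1 to 59.7 kb, over most of B3galt2. Within the span the islands overlapped H3K36me3 of the same genotype over 100% and 96.3% of their length. Cdc73 was the 1 member higher by 10 points or more, beside 4.49% of all genes and 43.5% of genes on chromosome 1, and 0 members were lower, beside 2.46% of genes. At equal covered length the Setd5+/- island was left out and the difference was −8.76 points. Reads relative to all island reads gave a log2 ratio of −0.15 (−0.40 to 0.10), and 1.5 when scaled to the 16 remaining autosomes, so the direction for this mark depended on the scale.

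SETD5-V5 lay over 3 of the 5 genes. It covered 91.8% of Ctr9, 72.5% of Leo1 and 82.6% of Cdc73, and no island touched Paf1 or Rtf1 or their flanks. Cover of at least 25% was found in 21.7% of all genes, and in 57.9% of the genes with wild-type H3K36me3 over at least 25% of the span, where the members counted 3 of 5. Ctr9 had 1 island of 464 reads from 2.25 to 27.8 kb. Leo1 had 187 reads from 3.28 to 12.1 kb and 209 from 15.3 to 28.1 kb. Cdc73 had 1088 reads from 1.29 to 61.3 kb, 160 from 74.1 to 82.1 kb and 425 from 85.3 to 109 kb. Densities of the 6 islands ranged from 16.3 to 21.3 reads per kb.

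On these 3 genes SETD5-V5 and wild-type H3K36me3 shared their positions. The part of the SETD5-V5 cover that lay inside H3K36me3 was 100% in Ctr9, 100% in Leo1 and 93.2% in Cdc73, and SETD5-V5 covered 94.0%, 85.2% and 95.04% of the H3K36me3. In Leo1 both began at the same window, 3.28 kb after the start. No SETD5-V5 overlapped H3K4me3 in Ctr9 or Leo1. In Cdc73 4.2 kb did, which is 5.10% of its SETD5-V5 and 60% of the wild-type H3K4me3 in its span. Wild-type H3K36me3 islands had 10.7 reads per kb on Paf1 and 8.75 and 11.6 on Rtf1. They had 14.0 on Ctr9, 12.8 on Leo1 and 14.0, 10.1 and 10.8 on Cdc73, so densities of single islands overlapped. Over all islands of a gene, densities were 10.7 on Paf1 and 10.8 on Rtf1, both without SETD5-V5. They were 12.0 on Cdc73, 12.8 on Leo1 and 14.0 on Ctr9, all with SETD5-V5. The Paf1 value is that of 1 island of 43.2 kb, of which 4.98 kb lay in Paf1, so it is not a density of that gene alone. Whether H3K36me3 density goes with SETD5-V5 beyond these members was not tested. Over the span, the genes with SETD5-V5 differed in H3K36me3 cover by 0 (Ctr9), 0 (Leo1) and 10.4 points (Cdc73), and those without it by 0 (Paf1) and 26.2 points (Rtf1), so both sets held a gene with equal cover and one with higher cover. With flanks Leo1 differed by −11.9 and Paf1 by 19.6 points, and at equal covered length Rtf1 differed by −4.32. Among chromosome 1 genes with wild-type H3K36me3 the median SETD5-V5 cover was 69.1%, beside 32.8% on the autosomes other than 1, 4 and 15, so the Cdc73 value stood in a chromosome with more SETD5-V5.

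Genes with the most similar pattern were found by Euclidean distance in covered percent over the 13 libraries, among 16853 genes of at least 5 kb. For Paf1 they were Mfge8, Flna and Rela (distances 7.59, 8.11 and 10.0), none of which had SETD5-V5. For Ctr9 they were Acly, Dzip1 and Baz1b (5.19, 5.46 and 5.52), with SETD5-V5 over 92.3%, 93.7% and 90.7% of the span. For Leo1 they were Ttc1, Exosc7 and Dld (4.45, 5.24 and 6.72). For Rtf1 they were Palb2, Mccc1 and Clptm1 (6.42, 6.59 and 7.86), whose H3K36me3 cover was 62.0%, 62.4% and 69.4% in wild type and 90.0%, 86.5% and 88.5% in Setd5+/- cells. For Cdc73 the nearest were more distant, Kctd3, Tram1 and Rars2 (14.0, 14.1 and 16.3), of which Kctd3 and Tram1 are also on chromosome 1 and Rars2 is on chromosome 4.

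A list of 35 other genes of transcription elongation, with the partners and readers of the complex, is given for scale. Of the 33 that span at least 5 kb, H3K36me3 lay over at least 25% of 26 in both genotypes, cover was higher by 10 points or more in 4 and lower in 10, and the median difference was −1.33 points. The members had 2 higher and 0 lower with a median of 0. The largest falls were in Supt4a, a subunit of the DSIF elongation factor, from 99.2% to 0%, and in Ube2a on chromosome X, an enzyme that conjugates ubiquitin to H2B, from 74.8% to 26.4%. The largest rises were in Ccnt2 on chromosome 1, a cyclin of P-TEFb, from 57.5% to 88.8%, and in Supt5, the partner of Supt4a in DSIF, from 68.2% to 91.6%. SETD5-V5 covered at least 25% of 21 of the 33, H3K36me2 cover differed by 10 points or more in 0, and H3K4me3 was at the start of 34 of the 35 in both genotypes. Wdr61, which encodes a further subunit of the complex in mammals, had 85.3% H3K36me3 cover in both genotypes and no SETD5-V5. Paf1 likewise had equal cover and no SETD5-V5.

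HDAC3 and NCoR form a corepressor complex, whose 6 genes were listed beside those of the PAF1 complex. Of the 5 that span at least 5 kb, H3K36me3 lay over at least 25% of 4 in both genotypes, 0 differed by 10 points or more, and 2, Hdac3 and Ncor1, had SETD5-V5 over at least 25%. Their median H3K36me3 cover was 65.4% in both genotypes.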

How the data were processed

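ChIP-seq islands of 13 libraries were used. The submitters' processing notes name FastQC, the aligner Bowtie2 2.2.3, the build GRCm38 (mm10) and the island caller SICER 1.1. Settings stand in the headers for H3K36me2, H3K36me3 and SETD5-V5: per the file headers, 800 bp windows, 2400 bp gaps and a false discovery rate (FDR) of 0.01. The other lists give none. Each island's deposited whole number was taken, from its values, as the authors' counts of reads. Whether inputs were controls, and total depth, is not given in the sources used here.

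Covered percent, reads shared out by length, read totals relative to the island reads of each library, and exact 95% intervals of ratios were computed with scipy 1.17.1, numpy 2.4.6 and pandas 2.3.3 in Python 3.11.15, and drawn with matplotlib 3.10.9. The cover arithmetic was checked base by base on the wild-type H3K36me3 list. The call of 10 points was checked on islands of known size added to that list. Other steps were not checked in this way. RefSeq gave strand for 17492 of 21887 genes, and elsewhere either end counted as a start. With 1 library per group, no test was made. Sizes called were 10 percentage points, 1.5 fold and 25% cover. Named genes are the members, their protein-coding neighbours, the 3 nearest genes by covered percent, and the 2 largest rises and falls of the elongation list; further genes were named after their values were seen. The members and lists were chosen with earlier results of these data known.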

Additional observations from a re-analysis of the deposited data

How the results depend on the processing

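Over 11 summary results and 40 alternatives, 19 values were kept. A count was kept if it was equal to the reported one or within 1.5 times of it, and a median only if identical. No replicate could be left out, and the cause of the differences was not tested unless stated. Apart from H3K36me3 cover on the autosomes other than 1, 4 and 15, the share of all genes was not computed under these alternatives. Their counts of members therefore have no such share beside them. A count near the reported one need not hold the same genes: with 5 kb flanks 3 members passed 10 points of H3K36me3 cover, Paf1 (19.6) and Rtf1 (21.6) higher and Leo1 (−11.9) lower, in place of Rtf1 and Cdc73, and the median difference was 9.49 points. The count of members with H3K36me3 cover differing by 10 points or more fell from 2 to 1 at equal covered length, at 20 points, and without chromosomes 1, 4, 15, X and Y, and that for H3K36me2 fell from 1 to 0 under these 3 and with flanks. The median log2 ratio of H3K36me3 reads was 0.54 scaled to the other autosomes, −0.0010 with whole islands, 0.20 without flanks and 0.18 without those chromosomes. Members with H3K36me3 reads past 1.5 fold numbered 2 with that scaling, 0 with whole islands and 0 without flanks, alternatives chosen after seeing the data. With the start base required, 1 member had H3K4me3 (Cdc73) and 1 had H3K27ac (Leo1) in 1 genotype only. With the lowest 25% of islands left out, 1 member had H3K27ac and 3 (Ctr9, Leo1 and Cdc73) had H3K4me1 in 1 genotype only, and 1 kept lower H3K27ac reads. With 10 kb flanks 2 had H3K4me1 in 1 genotype only. Single values changed sign for Paf1 reads (−0.10, whole islands), Leo1 reads (0.029, no flanks), Rtf1 cover and reads (−4.32 points and −0.074, equal length) and Cdc73 H3K36me2 (−8.76 points, equal length). No paired analysis was possible because each group has 1 library. Member islands of H3K27ac had 26 to 128 reads, those of H3K4me1 25 to 90, and the 1 of H3K27me3 37.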
